A study of Mus musculus with 4 samples.

Results

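The 46 genes described here encode the proteasome, its regulators and the chaperones that assemble it. They are the protein-coding rows of the deposited expression table whose symbols start with Psma, Psmb, Psmc, Psmd, Psme, Psmf or Psmg and a digit, without Psma6 and without the immunoproteasome subunits Psmb8, Psmb9 and Psmb10, out of 54532 rows in all. RNA was sequenced from 4 libraries of mouse cells that the labels call primary lung fibroblasts, 2 with the genotype Calu-KO and 2 with the genotype Calu-WT (WT below). Calu encodes calumenin, which binds calcium in the lumen of the secretory pathway. The titles of the Calu-KO libraries carry the letters KD, and the sources used here do not state how the gene was targeted, the strain or age of the mice, or any treatment. The labels do not tell whether the pair of libraries in a group stems from different mice or culture dishes. Each p-value therefore reflects library-to-library spread alone, and that spread may be technical.

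The proteasome degrades ubiquitin-tagged proteins in the cytosol and nucleus, including misfolded ones returned from the endoplasmic reticulum. Its barrel, the 20S core, stacks outer rings of alpha subunits on inner rings of beta subunits, and Psmb5, Psmb6 and Psmb7 carry the chymotrypsin-like, caspase-like and trypsin-like active sites. The 19S cap has a base of ATPases that unfold substrates and a lid that removes ubiquitin. Dedicated chaperones (Psmg genes for the core; Psmd5, Psmd9 and Psmd10 for the base) build both parts. The factor NRF1, encoded by Nfe2l1, is known to raise most subunit genes together through antioxidant response elements when proteasome activity falls short.

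The promoters of these genes are shown because that shared element is the known link between the subunit genes. RefSeq promoter windows of 300 bases (250 before and 50 after the start site, GRCm38.p6) matched 38 of the 46 genes, with 40 windows. The core of the antioxidant response element, TGACNNNGC, searched on both strands, was in 6 of 40 windows (15.0%), against 12.4% of all 32851 windows. The genes holding it were Psmb5, Psmb6, Psmc6, Psmd9, Psmd12 and Psme4. The capitals mark the match, and each stretch is given 5′ to 3′ on the strand of its gene, with up to 20 bases on either side as far as the part of the window before the RefSeq start site reaches. The last bases of the Psmb5 stretch lie inside the gene's deposited span. Psmb5 is on the minus strand (chr14:54618014-54618062) and the others on the plus strand (Psmb6 chr11:70525328-70525356, Psmc6 chr14:45329577-45329625, Psmd12 chr11:107479278-107479309), and the matches of Psmc6 and Psmd12 read on the other strand.
Psmb5: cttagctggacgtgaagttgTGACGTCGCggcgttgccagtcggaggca
Psmb6: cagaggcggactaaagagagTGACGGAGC
Psmc6: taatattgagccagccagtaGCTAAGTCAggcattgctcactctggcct
Psmd12: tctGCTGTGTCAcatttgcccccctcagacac

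The ETS core CCGGAAG, a short sequence bound by ETS transcription factors, was in 15 of 40 windows (37.5%, 14 genes), against 8.86% of all windows. Most of these genes encode parts of the 19S cap. CCAAT was in 13 windows (32.5%, against 37.4%) and TATAAA in 3 (7.50%, against 13.6%). A match describes the letters only, and no motif of the 4 holds another. The windows of Psmd2 (chr16:20651606-20651651, plus strand), Psmg1 (chr16:95991003-95991049, minus strand), Psmc6 (chr14:45329704-45329750, plus strand) and Psmd4 (chr3:95042713-95042759, minus strand) show the ETS core in capitals, on either strand.
Psmd2: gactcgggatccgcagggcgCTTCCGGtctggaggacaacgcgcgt
Psmg1: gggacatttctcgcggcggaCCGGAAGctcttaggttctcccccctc
Psmc6: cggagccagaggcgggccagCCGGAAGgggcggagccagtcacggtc
Psmd4: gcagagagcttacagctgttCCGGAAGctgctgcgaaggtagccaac

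Calu itself had 14.9 and 10.9 FPKM in Calu-KO, against 178 and 177 FPKM in WT (FPKM is a fragment count per gene length, scaled for depth by the authors). Depth was even, at 15635448 to 16510048 reads recovered per library. Calu-KO replicate 2 stood apart: the share of its reads in mitochondrial genes was 4.002%, while the 3 remaining libraries had 2.43% to 2.53%. Across all genes, its log2 difference from the WT mean rose with gene length (Spearman's rho 0.366, against 0.0728 for Calu-KO replicate 1; across genes, which are not independent). Of 10 fibroblast markers, 7 averaged at least 1 FPKM. The 10 summed to 1150 and 1402 FPKM in Calu-KO and 1187 and 1180 FPKM in WT. Vim was the largest part of that sum, at 531 and 650 FPKM in Calu-KO and 588 and 596 FPKM in WT. Col1a1 and Col1a2 lay above WT in both Calu-KO libraries, Col3a1, Fn1 and Pdgfrb below, and Vim and Pdgfra overlapped. Col3a1 was at 11.9 and 12.2 FPKM in Calu-KO and 38.9 and 39.4 FPKM in WT. Col1a2 was at 343 and 394 FPKM in Calu-KO and 234 and 229 FPKM in WT. Thy1 reached at most 0.137 FPKM. Lum and Dcn were at 0 in all libraries, and the 4 lung mesenchyme factors (Tcf21, Foxf1, Tbx4 and Tbx5) summed to at most 0.142 FPKM in any library, so the lung origin rests on the labels. Markers of leukocytes summed to 4.17 and 4.12 FPKM in Calu-KO and 11.1 and 12.2 FPKM in WT, and 2 of the 6 averaged at least 1 FPKM (Cd68 and Lyz2). Adgre1 and Itgam were at 0 in all libraries, and Ptprc and Csf1r reached at most 0.00334 and 0.210 FPKM. Mesothelial markers summed to 25.3 and 22.1 FPKM in Calu-KO and 32.99 and 30.4 FPKM in WT. Pericyte and smooth muscle markers summed to 48.6 and 58.2 FPKM in Calu-KO and 39.2 and 37.4 FPKM in WT. Among them Mcam was at 18.4 and 12.97 FPKM in Calu-KO and 2.42 and 2.77 FPKM in WT, while Cspg4 overlapped. Epithelial markers summed to 0.446 and 0.213 FPKM in Calu-KO and 3.17 and 3.38 FPKM in WT, where Krt8 was most of the sum. Endothelial markers summed to at most 0.234 FPKM in any library. The part of any of these cell types in the results was not tested. In bulk RNA, fewer cells of a type and less RNA per cell cannot be told apart.

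Proteasome genes were expressed at substantial levels in every library. Of the 46, 44 averaged at least 1 FPKM and were tested. Psma8, the testis form of an alpha subunit, had no reads in any library, and Psmb11, the thymus form of a beta subunit, had 0.0247 FPKM (2 reads) in Calu-KO replicate 1 and none elsewhere. At this depth 3 reads of these genes would give 0.0370 to 0.121 FPKM. Psmc3ip, a recombination factor and no proteasome subunit, matched by its symbol only. It stood at 12.2 and 8.62 FPKM in Calu-KO and 10.5 and 8.34 FPKM in WT. Summed over the 46 genes, expression was 2082 and 1939 FPKM in the Calu-KO libraries and 2173 and 2184 FPKM in the WT libraries. The tested genes had 76 to 10623 reads per library, with a median of 2031.

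**Figure D1:**
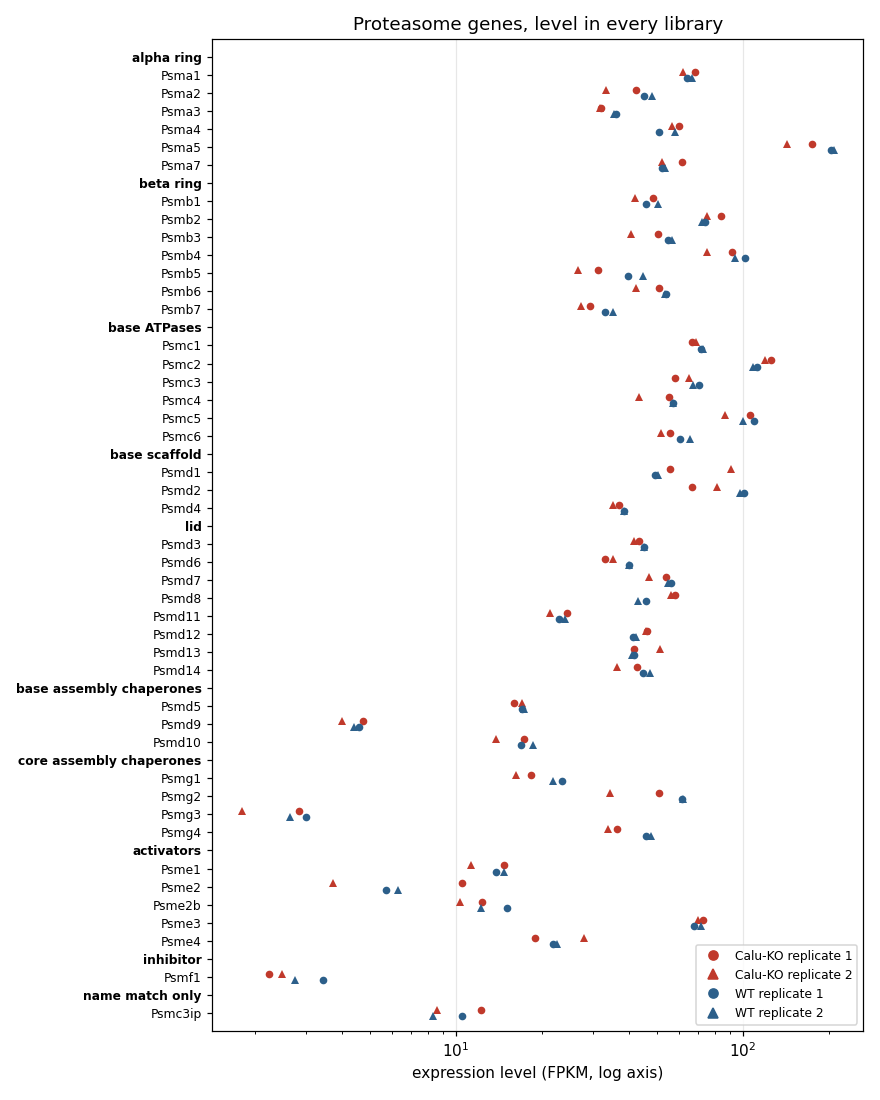
Level of each of the 44 tested genes in every library (FPKM, log axis), grouped by subcomplex, with Calu-KO in red above WT in blue and replicates 1 and 2 as circles and triangles. Levels range from about that of Psmg3 and Psmf1, under 4 FPKM, to Psma5, at 142 to 207 FPKM, and the Calu-KO pair is farther apart than the WT pair in 36 of 44 genes.

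No proteasome gene passed the test between Calu-KO and WT, and the set was slightly lower as a whole. With limma on log2(FPKM + 1) and an adjusted p under 0.05 over all 11885 genes tested, 0 of 44 were higher and 0 lower, where 0.942% of all tested genes were higher and 1.83% lower (2.77% in all). At an unadjusted p under 0.05, 1 gene was higher (Psmd8) and 6 were lower, against 12.0% and 12.7% of all tested genes, so the count of lower genes was near the background and that of higher genes under it. A fit of the recovered reads with limma-voom also called 0 of 44, where it called 6.98% of all genes. Adjusted p ran from 0.106 to 0.992 over the members.

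The direction was more uniform than the size. The log2 change was below 0 in 32 of 44 genes (49.3% of all tested genes), with a median of -0.14 against 0.01 over all tested genes, a middle range from the first to the third quartile of -0.24 to 0.03 and extremes of -0.55 and 0.50. Both Calu-KO libraries lay below both WT libraries in 22 of 44 genes (29.7% of all tested genes), above both in 5 (32.0% of all) and overlapped them in 17. The change was under 0.5 in size for 93.2% of the members and 81.8% of all tested genes, and 3 members were past it (Psmg2, Psmb5 and Psmd1). The 95% interval of the log2 change lay within -0.5 and 0.5 for 19 genes and within -1 and 1 for 41.

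**Figure D2:**
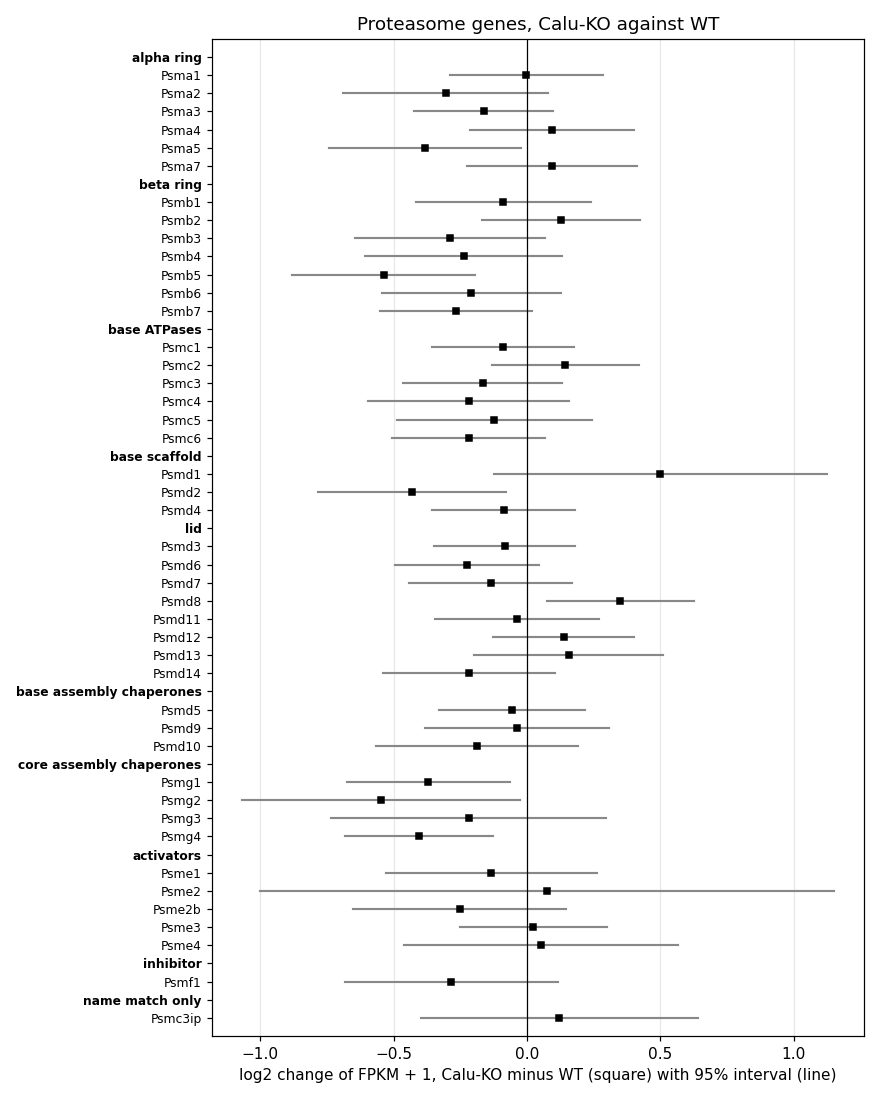
Log2 change of FPKM + 1, Calu-KO minus WT, of each tested gene (square) with its 95% interval from limma (line), grouped by subcomplex. Most squares lie left of 0, the outermost being Psmg2 at -0.55 and Psmd1 at 0.50, and no gene had an adjusted p under 0.05.

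The size of the shift differed between the Calu-KO libraries. Measured against the WT mean, the median over the 44 genes was -0.05 in Calu-KO replicate 1 and -0.21 in Calu-KO replicate 2, with 0.01 for all tested genes in each. Calu-KO replicate 2 was below replicate 1 in 35 of 44 genes, and the median absolute log2 difference within the Calu-KO pair was 0.21, against 0.05 within the WT pair (0.24 and 0.08 over all tested genes). Proteasome genes are short, with a median length of 2804 bases against 3885 for all tested genes. Across the 44, the difference of Calu-KO replicate 2 from the WT mean went with gene length (rho 0.538, described with no test), and that of replicate 1 hardly did (0.124). With trends on GC content and gene length removed from each library, the median change was -0.08, with 28 of 44 genes below 0. Without Calu-KO replicate 2 the median was -0.05 with 26 below 0, and without Calu-KO replicate 1 it was -0.21 with 36 below 0.

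How many members passed depended on the library left out, but the fits without either Calu-KO library shared several. Psma5, Psmb5, Psmd2, Psmg2 and Psmg4 were lower in both of these fits, and Psmd8 was higher in both. Psme2 went in opposite directions, at -0.57 without Calu-KO replicate 1 and 0.71 without Calu-KO replicate 2. Without Calu-KO replicate 1, 4 were higher (Psmd1, Psmd8, Psmd13 and Psme4) and 19 lower, when 24.6% and 23.6% of all genes passed. Without Calu-KO replicate 2, 2 were higher (Psmd8 and Psme2) and 6 lower (Psma5, Psmb5, Psmd2, Psmd6, Psmg2 and Psmg4), when 7.76% and 9.51% of all genes passed. In these fits the spread comes from the WT pair alone, and the lone Calu-KO library is assumed to vary as that pair does. Without either WT library in turn, 0 members passed, at an unadjusted p as well.

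**Figure D3:**
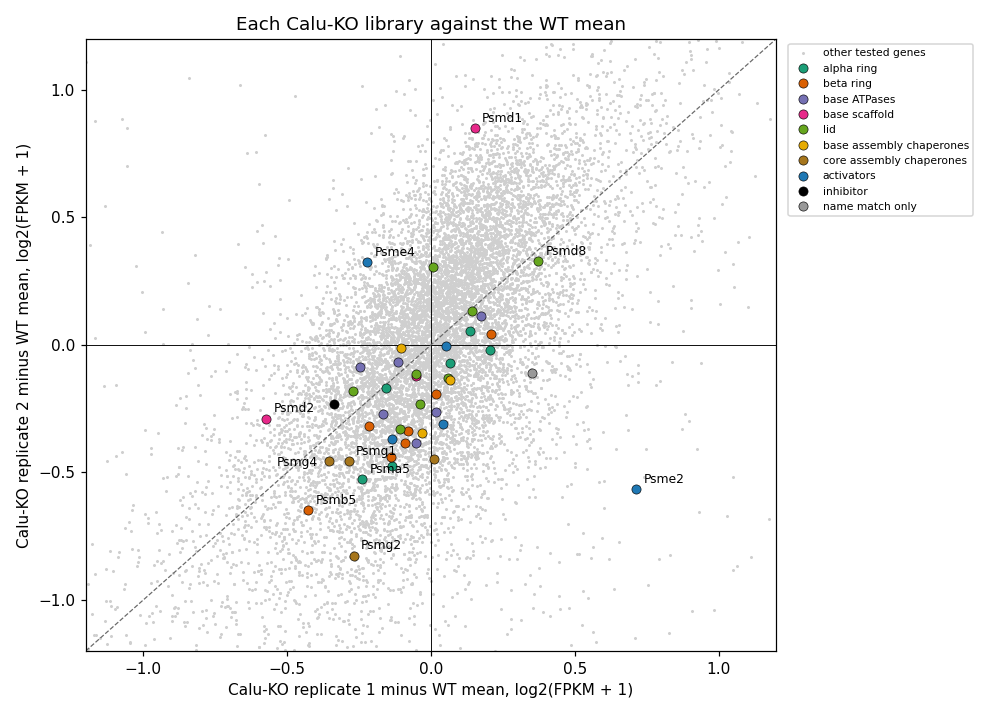
Log2 difference of each Calu-KO library from the WT mean on log2(FPKM + 1), replicate 1 across and replicate 2 up, for proteasome genes (coloured by subcomplex) and the other tested genes (grey; those beyond 1.2 are not drawn), with the line of equality dashed. Most proteasome genes lie below the dashed line, as 35 of 44 were lower in replicate 2 than in replicate 1, and Psme2 lies far to the lower right.

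The 20S core was lower in both Calu-KO libraries in sum. Its 13 tested genes summed to 824 and 707 FPKM in Calu-KO and 855 and 876 FPKM in WT, with a median log2 change of -0.21. In Calu-KO replicate 1 most of the gap in the sum came from Psma5 (173 FPKM, against 203 and 207 FPKM in WT). In 8 of 13 both Calu-KO libraries lay below WT (29.7% of all tested genes), in 1 (Psmb2) above (32.0% of all) and in 4 they overlapped. All 13 were lower in Calu-KO replicate 2 than in replicate 1.

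In the alpha ring, which forms the gated entrance, Psma5 had the highest mean FPKM of all proteasome genes. It stood at 173 and 142 FPKM in Calu-KO and 203 and 207 FPKM in WT, with no overlap. Its log2 change was -0.38 ± 0.14 (SE; adjusted p = 0.185, limma). The other 5 tested alpha genes ran from 31.8 to 68.1 FPKM in Calu-KO and 35.6 to 66.2 FPKM in WT. Psma2 (42.5 and 33.4 FPKM in Calu-KO, 45.4 and 48.3 FPKM in WT) and Psma3 (32.1 and 31.8 FPKM in Calu-KO, 36.3 and 35.6 FPKM in WT) lay below WT in both libraries. Psma1, Psma4 and Psma7 overlapped WT, with log2 changes of -0.0020, 0.09 and 0.09 on the log2(FPKM + 1) scale. The ring's highest mean FPKM was 4.93 times its lowest in Calu-KO and 5.71 times in WT. FPKM divides by the annotated gene length, which ran from 1321 bases (Psma5) to 3894 bases (Psma3) in the tested alpha genes. Ratios between genes therefore depend on that length as well as on message number.

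In the beta ring the 3 catalytic genes were all below WT in both Calu-KO libraries, as were 29.7% of all tested genes. Psmb5 (chr14:54614119-54618022, minus strand, mm10), the target of the drug bortezomib, had 31.2 and 26.6 FPKM in Calu-KO and 39.9 and 44.9 FPKM in WT. Its mean in Calu-KO was 0.682 of that in WT, a log2 change of -0.54 ± 0.13 with a 95% interval of -0.88 to -0.20 and the lowest adjusted p of the set, 0.106 (limma). Removing GC and length trends gave -0.27 for Psmb5, -0.0542 for Psmb6 and -0.41 for Psmb7. Psmb7 had 29.3 and 27.2 FPKM in Calu-KO and 33.05 and 35.3 FPKM in WT (-0.27 ± 0.11, adjusted p = 0.219). Psmb6 had 50.8 and 42.3 FPKM in Calu-KO and 53.9 and 53.6 FPKM in WT (-0.21 ± 0.13, adjusted p = 0.360). Together the 3 summed to 111 and 96.2 FPKM in Calu-KO and 127 and 134 FPKM in WT, so the groups did not overlap in the sum.

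The structural beta genes were mixed. Psmb3 (50.5 and 40.9 FPKM in Calu-KO, 54.9 and 56.6 FPKM in WT) and Psmb4 (91.7 and 74.7 FPKM in Calu-KO, 102 and 93.8 FPKM in WT) were lower in both Calu-KO libraries. Psmb2 was higher in both, at 84.1 and 74.97 FPKM in Calu-KO and 73.6 and 71.8 FPKM in WT, and Psmb1 overlapped, at 48.8 and 42.0 FPKM in Calu-KO and 46.1 and 50.4 FPKM in WT. The log2 change of greatest size among these 4 was that of Psmb3, -0.29. Exons of Psmb5 share 12.1% of their bases with the microRNA gene Mir686, and those of Psmb7 share 11.8% with Nek6 on the opposite strand. Mir686 had no reads, and Nek6 stood at 8.77 and 8.20 FPKM in Calu-KO and 11.1 and 11.2 FPKM in WT. Whether counting used the strand is not given, so reads of Psmb7 and Nek6 cannot be told apart in the shared part.

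The 19S cap was nearly level in sum, at 969 and 978 FPKM in Calu-KO and 1008 and 996 FPKM in WT over its 17 genes. That sum leans on Psmd1, at 55.8 and 91.2 FPKM in Calu-KO and 49.6 and 50.8 FPKM in WT. The median log2 change was -0.09. In 10 of 17 both Calu-KO libraries lay below WT (29.7% of all tested genes), in 4 above (32.0% of all), and in 3 they overlapped. The genes that differed most went in both directions.

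The 2 large genes of the base scaffold went in opposite directions. Psmd1 and Psmd2 encode the large scaffold subunits of the base, and Psmd2 docks the ubiquitin-like domains of shuttle factors. Psmd1 (chr1:86064387-86139151, plus strand) had 55.8 and 91.2 FPKM in Calu-KO and 49.6 and 50.8 FPKM in WT, above WT in both libraries and far above in replicate 2. Its log2 change was 0.50 ± 0.24 (adjusted p = 0.266), 0.15 without Calu-KO replicate 2 and 0.85 without Calu-KO replicate 1, and 0.37 with GC and length trends removed. Psmd1 is long, at 7265 bases against a median of 2804 over the tested members. Psmd2 (chr16:20651652-20663414, plus strand) had 66.4 and 81.2 FPKM in Calu-KO and 101 and 98.0 FPKM in WT, below WT in both, a log2 change of -0.43 ± 0.14 (adjusted p = 0.153). Psmd4, a ubiquitin receptor, had 37.1 and 35.2 FPKM in Calu-KO and 38.4 and 38.6 FPKM in WT, a difference of -0.09.

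The ATPases, which form a single ring, differed little. Psmc2 had the highest FPKM of them, with 125 and 119 FPKM in Calu-KO and 112 and 109 FPKM in WT (0.14 ± 0.11, adjusted p = 0.433, limma). It was the one ATPase above WT in both libraries, although its change was -0.02 once the GC trend was removed. Psmc1, Psmc3, Psmc4 and Psmc6 were below WT in both, with log2 changes of -0.22 to -0.09, and Psmc5 overlapped (106 and 86.7 FPKM in Calu-KO, 109 and 99.8 FPKM in WT). The highest mean FPKM of the ATPases was 2.48 times the lowest in Calu-KO and 1.93 times in WT.

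The lid, at 344 and 335 FPKM in Calu-KO and 338 in each WT library, showed no shift in sum. Psmd8, a lid subunit, had 57.9 and 56.1 FPKM in Calu-KO and 46.1 and 43.0 FPKM in WT. It was the one member higher at an unadjusted p (0.0222), with a log2 change of 0.35 ± 0.11, a 95% interval of 0.07 to 0.63 and an adjusted p of 0.145 (limma), and its Calu-KO libraries lay close together. Psmd14, the metalloprotease that cuts ubiquitin chains from substrates, had 42.7 and 36.5 FPKM in Calu-KO and 44.9 and 47.3 FPKM in WT (-0.22 ± 0.13, adjusted p = 0.329). Its inactive partner Psmd7 had 54.0 and 47.1 FPKM in Calu-KO and 56.2 and 54.9 FPKM in WT. Psmd12 had 46.4 and 45.9 FPKM in Calu-KO and 41.2 and 42.5 FPKM in WT (0.14 ± 0.10, adjusted p = 0.431), a narrow gap with no overlap. Psmd13 had 41.6 and 51.3 FPKM in Calu-KO and 41.9 and 40.9 FPKM in WT (0.16 ± 0.14, adjusted p = 0.505), high in replicate 2 alone. Psmd3 and Psmd6 lay below WT in both libraries (-0.08 and -0.23), and Psmd11 overlapped.

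The chaperones of the core had the lowest median of any group of members, -0.39, and those of the base did not separate. Genes of the core chaperones had a median length of 1201.5 bases, against 2804 over the tested members. The part of gene length in their median was not tested. The Psmg proteins work as pairs, Psmg1 with Psmg2 and Psmg3 with Psmg4, that seed the alpha ring. Psmg2 had 51.0 and 34.4 FPKM in Calu-KO and 61.5 and 62.0 FPKM in WT, below WT in both and lowest in replicate 2. Its log2 change was -0.55 ± 0.20 (95% interval -1.07 to -0.03, adjusted p = 0.188, limma). Against the WT mean it was -0.83 in Calu-KO replicate 2 and -0.27 in replicate 1. After removal of GC and length trends it was -0.47. Psmg4 had 36.3 and 33.8 FPKM in Calu-KO and 45.8 and 47.7 FPKM in WT (-0.41 ± 0.11, adjusted p = 0.118). With GC and length trends removed its change was -0.20; at 555 bases it is the shortest of the 46 genes.

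Psmg1, named after its values were seen, had 18.3 and 16.2 FPKM in Calu-KO and 23.4 and 21.8 FPKM in WT (-0.37 ± 0.12, adjusted p = 0.155). Psmg3 was low and overlapped, at 2.84 and 1.80 FPKM in Calu-KO and 2.998 and 2.64 FPKM in WT. The 4 summed to 109 and 86.2 FPKM in Calu-KO and 134 in each WT library. Psmd5, Psmd9 and Psmd10 all overlapped WT, as 4558 of all 11885 tested genes did, with log2 changes of -0.06, -0.04 and -0.19.

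The activators did not separate from WT in any of 5 genes (median log2 change 0.02), where 4558 of all 11885 tested genes overlapped. Psme1 and Psme2 form the interferon-inducible cap. Psme1 had 14.7 and 11.3 FPKM in Calu-KO and 13.8 and 14.7 FPKM in WT (-0.13 ± 0.15, adjusted p = 0.606). Psme2 had 10.5 and 3.72 FPKM in Calu-KO and 5.71 and 6.28 FPKM in WT, the widest split of the Calu-KO pair in the set, with a 95% interval of -1.003 to 1.15. Psme2b is a near-identical copy between which and Psme2 reads may be divided, and the pair summed to 22.8 and 14.0 FPKM in Calu-KO and 20.8 and 18.5 FPKM in WT.

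Psme3, the nuclear activator, was level at 72.3 and 69.5 FPKM in Calu-KO and 67.8 and 71.7 FPKM in WT (0.02 ± 0.11, 95% interval -0.25 to 0.30, adjusted p = 0.901). Psme4, another activator of the core, had 18.8 and 27.9 FPKM in Calu-KO and 21.8 and 22.4 FPKM in WT (0.05 ± 0.20), so the Calu-KO libraries lay on either side of WT. Psmf1, an inhibitor of the core in vitro, had 2.23 and 2.48 FPKM in Calu-KO and 3.43 and 2.76 FPKM in WT (-0.28 ± 0.16, adjusted p = 0.310).

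The members lie on 16 chromosomes, and those on chromosome 16 sat among genes that were lower as a whole. The 354 tested genes of chromosome 16 had a median log2 change of -0.24 (-0.28 in Calu-KO replicate 1 and -0.21 in replicate 2), the lowest of the 20 chromosomes compared. Within 5 Mb of Psmd2 the other 88 tested genes had a median of -0.41, beside -0.43 for Psmd2 itself. Within 5 Mb of Psmg1 the 36 others had a median of -0.31, beside -0.37 for Psmg1. The part of this in the values of Psmd2 and Psmg1 was not tested. Near the other members with large changes the medians were close to 0 or much smaller. They were -0.03 for Psmg2, -0.13 for Psmb5, -0.15 for Psmg4, -0.05 for Psma5, -0.01 for Psmd1 and -0.02 for Psmd8. Some members with smaller changes off chromosome 16 also stood close to low medians. Psmd6 was at -0.23 beside -0.23, Psma3 at -0.16 beside -0.18 and Psmc3 at -0.17 beside -0.19. Psme4 was at 0.05 beside -0.25. The 42 tested members off chromosome 16 had a median of -0.13. Of them, 20 lay below and 5 above WT in both libraries, against 29.7% and 32.0% of all tested genes.

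**Figure D4:**
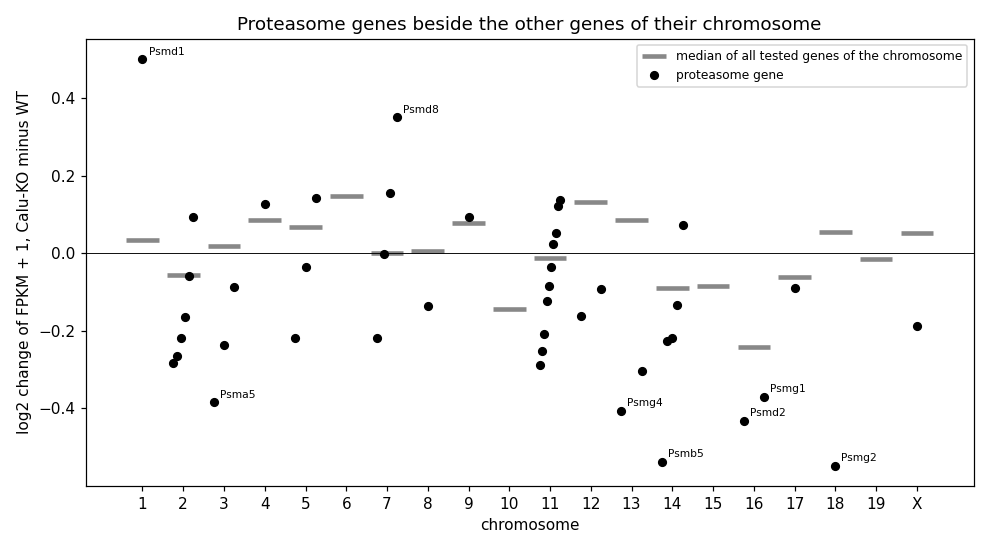
Log2 change of FPKM + 1, Calu-KO minus WT, of each proteasome gene (black) on its chromosome, with the median of all tested genes of the chromosome as a grey bar. Chromosome 16 has the lowest bar, -0.24, and holds Psmd2 and Psmg1, while Psmg2, Psmb5 and Psmd1 stand far from the bars of their chromosomes.

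Other genes of the ubiquitin-proteasome pathway did not share the lower median. Those tested were longer, with a median length of 4431.5 bases against 2804 for the members. The part of gene length in this contrast was not tested. Of 36 such pathway genes, 34 were tested, with a median log2 change of 0.07. Of these, 0 were called higher and 1 lower, against 0.942% and 1.83% of all tested genes. At an unadjusted p under 0.05 (limma), 3 were higher and 7 lower, against 12.0% and 12.7% of all tested genes. The one called lower at the adjusted threshold was Maff, a small MAF partner of NRF1 and NRF2. It had 2.69 and 2.35 FPKM in Calu-KO and 6.07 and 5.64 FPKM in WT (-0.96 ± 0.13, adjusted p = 0.0409, limma). Its call was lost without WT replicate 1 (adjusted p = 0.337), without WT replicate 2 (0.258), after rescaling by total reads (0.0571) and with all genes that had a read in the fit (0.138).

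Nfe2l1 had 73.7 and 73.2 FPKM in Calu-KO and 91.3 and 89.1 FPKM in WT, below WT in both with a close Calu-KO pair (-0.29 ± 0.10, adjusted p = 0.177). Pomp, which helps the half-built core to mature, had 26.9 and 21.4 FPKM in Calu-KO and 24.4 and 27.0 FPKM in WT and overlapped (-0.09 ± 0.15, adjusted p = 0.721). The median was -0.01 for 10 other genes of the 26S particle, which ran from -0.60 to 0.78, with 5 below 0 and 5 above. Among them Adrm1 (-0.45) lay below WT in both Calu-KO libraries, Sem1 (-0.17) overlapped and Uchl5 (0.39) lay above. The median was 0.07 for 13 genes of proteasome transcription and NRF1 processing. It was 0.05 for 6 ubiquitin and E1 genes and 0.13 for 5 tested shuttle factors. Ubqln2 and Ddi1, the other shuttle factors, were at 0 in all libraries.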

How the data were processed

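RNA from 2 Calu-KO and 2 WT libraries was compared, grouped by the genotype label and numbered as in the descriptions. Per the submitters' processing notes, reads were aligned with HISAT2 2.0.5 to mm10. The sources used here do not state the counter, annotation or use of strand. The authors deposited gene-level FPKM values, with gene lengths and coordinates (mm10). Multiplied by length, these were whole multiples of 1 read for 100% of values, and library sizes followed median-of-ratios factors, so the deposited columns are already scaled between libraries. Intervals cover the spread between libraries, and floors of 3 reads counting error only.

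Values were analysed as log2(FPKM + 1), which understates changes of low genes, in the 11885 genes averaging at least 1 FPKM, with limma 3.58.1 in R 4.3.3 (intensity-dependent prior, two-sided, Benjamini-Hochberg, threshold 0.05). All adjusted p-values are from that fit over all genes unless another is named. An exact permutation test of 2 against 2 cannot go below p = 0.333. The fit was tested on simulated data. Alternatives changed the pseudocount, filter, scaling, prior and libraries, and limma-voom, GC and length corrections were added after the data were seen.

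Named with values in every library were members past the threshold, the 5 greatest changes per direction, the catalytic genes, Psmd14, Psme1 to Psme4, Psmf1, Nfe2l1, Pomp and companions past the threshold; others so given were picked for their subcomplex or after their values were seen. The members and lists were chosen with earlier results of these data known. All 46 members were found in GENCODE M21 by identifier, 45 with the same start and end; 13 share exon bases with another gene, 5 over 10% of them.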

Additional observations from a re-analysis of the deposited data

How the results depend on the processing

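With 2 libraries a group, the median distance from the change to the bounds of a member's 95% interval was 0.33 on the log2 scale, so a p that misses the threshold does not show equal levels. Over 16 alternatives the median log2 change of the members ran from -0.24 to -0.05, and the number below 0 from 26 to 37. Rescaling by total reads gave the lowest median, -0.24, where that of all genes was -0.09.

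No member passed in the settings other than those leaving out a Calu-KO library and the fit of every row of the table, which called 1 member higher (Psmd1) and 2 lower (Psmb5 and Psmg2), 2 companions higher and 5 lower, and 1008 genes higher and 1400 lower in all. In that fit limma warns that most residual variances are 0. With every gene that had a read, limma called 0 higher and 0 lower (3886 genes at an unadjusted p under 0.05; 0 companions lower). Against 112 higher and 217 lower genes, a filter at 5 FPKM called 130 lower and 0 companions lower, since Maff was below it, and total reads called 45 higher and 0 companions lower. Limma-voom called 361 higher, 469 lower and 3 companions lower, and GC and length correction 193 higher and 3 companions lower. The replicate numbers did not pair the libraries (correlation of same-numbered deviations 0.0153), and a replicate block called 181 higher, 312 lower and 0 members. Leaving out 1 library gave 8 to 2926 genes higher and 34 to 2805 lower, 0 to 4 members higher and 0 to 19 lower, and 0 to 8 companions higher and 0 to 10 lower. The planned negative-binomial count tests were not run, since the table holds FPKM.

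Among the genes named by the plan, directions turned for Psmc2, Psme1 to Psme4 and Pomp, whose changes were near 0 or split between the Calu-KO libraries. Other members were not followed over all settings, and some turned as well. Without Calu-KO replicate 2, for example, Psma1 was at 0.0652 and Psmb1 at 0.0160, both below 0 in the main fit. Total reads gave -0.0131 for Psme2, -0.0830 for Psme3 and -0.0532 for Psme4. GC correction gave -0.0157 for Psmc2 and -0.0617 for Psme4, and GC and length correction -0.0415 for Psmc2, 0.0932 for Psme1 and -0.15 for Psme4. Over the fits leaving out 1 library, values ran from -0.31 to 0.0420 for Psme1, -0.57 to 0.71 for Psme2, -0.0157 to 0.0640 for Psme3, -0.22 to 0.32 for Psme4 and -0.25 to 0.0684 for Pomp. Psme3 turned without WT replicate 1 and, at -0.0043, without Calu-KO replicate 1, where Psme2 turned too, and Psme1, Psme4 and Pomp without Calu-KO replicate 2. The cause was not tested.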
